A study of Mus musculus with 14 samples.

Results

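The comparison set GFP+ osteoblasts against CD31+ endothelial cells, both taken from the marrow of mice given granulocyte colony-stimulating factor (G-CSF), the cytokine used to drive blood stem and progenitor cells out of the marrow. It used the 7 arrays of G-CSF samples, 3 of osteoblasts and 4 of endothelial cells, out of 14 arrays in all. The other 7 arrays, 3 of osteoblasts and 4 of endothelial cells, came from mice labelled untreated and served to ask whether the contrast was different without the cytokine. The fit took its estimate of spread from all 14 arrays, so the untreated arrays also entered each SE and p-value after G-CSF. Both sorts came from C57BL/6J animals aged 6 to 8 weeks that carried the pOBcol2.3-GFP reporter, in which a fragment of the Col1a1 promoter drives GFP in cells of the osteoblast line. The labels give their genotype as wild type. G-CSF was injected under the skin at 250 ug/kg, for 5 days by the sample titles and for 7 days by the treatment protocol, which also names a vehicle for the controls. Marrow stroma was released with collagenase and both populations were gated as CD45- and Ter119-, that is, without the surface markers of leukocytes and red cells. Osteoblasts were then GFP+ and CD31-, and endothelial cells GFP- and CD31+. Replicates are numbered in the labels without saying whether each was a separate mouse, so the p-values below measure the spread between these samples, which may be technical.

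Osteoblasts build bone by secreting and mineralising a collagen matrix, and some become buried in it as osteocytes. Marrow endothelial cells line arteries, capillaries and the wide, leaky sinusoids through which blood cells leave. Both cell types make factors that hold and feed blood stem cells, and in mice G-CSF is known to suppress osteoblasts and to lower CXCL12, the chemokine that retains stem cells.

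Each array measured 45101 probe sets, of which 13453 genes with a single gene symbol and enough signal were tested. Levels are log2 of the deposited intensity plus 16, and a difference is the osteoblast mean minus the endothelial mean, given ± its standard error (SE), so that a positive difference means more signal in osteoblasts. A gene was called at a Benjamini-Hochberg adjusted p under 0.05 in limma, a linear model across all genes. The ratio of signal from the 3' end of the actin transcript to its 5' end, which rises as RNA degrades, was 2.71, 6.28 and 10.5 in the osteoblast arrays after G-CSF and 2.62 to 3.76 in the endothelial arrays. Osteoblast replicates 2 and 3, in both conditions, were also deposited with up to 7 decimals, and every other array with 1. The part of either in the results was not tested beyond the fits given below.

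After G-CSF, 2351 genes (17.5% of those tested) were higher in osteoblasts and 1936 (14.4%) were higher in endothelial cells. Of the genes higher in osteoblasts, 643 differed at least 4-fold, and so did 461 of those lower there. In 2885 genes (21.4%) every osteoblast array lay above every endothelial array, and in 2422 (18%) every one lay below, and 4023 of the 4287 called genes belonged to these. The median difference over all genes was 0.02. The balance of the calls depended on scaling: 54.8% of called genes were higher in osteoblasts as deposited, 49.8% after quantile normalization and 33.2% when each array was centred on its median, a step that moved the median difference to -0.26. With osteoblast replicate 1 alone against the endothelial arrays, all printed with 1 decimal, 1642 genes were higher and 1811 lower, and with a batch term for the printed decimals 2112 were higher and 2014 lower. In the fit with replicate 1 alone the endothelial arrays supply all of the spread, and the lone osteoblast array is assumed to vary as they do, so a call lost there, as for Col1a1, Col1a2, Lum, Lama2, Wif1 and Il4ra, also reflects the smaller number of arrays. The Col1a1, Col1a2, Lum, Lama2 and Wif1 differences there were 1.61, 0.76, 3.91, 1.48 and 3.86. With the actin ratio as a covariate 2023 genes were higher and 1667 lower.

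The 12 largest differences on the osteoblast side were led by Ogn, Thbs4, Itgbl1 and Col8a2. Ogn, which encodes the small proteoglycan osteoglycin, stood at 12.86, 14.40 and 13.93 in osteoblasts and at 6.88, 6.38, 5.98 and 6.34 in endothelial cells, 162-fold higher (log2 difference 7.34 ± 0.32, adjusted p = 4.2e-09). The lowest osteoblast array, 12.86, lay far above the highest endothelial array, 6.88. Itgbl1, which encodes a secreted integrin-like protein, was 11.56, 12.41 and 12.66 against 5.94, 5.00, 5.41 and 5.21 (6.82 ± 0.29, adjusted p = 4.2e-09), and Col8a2, a chain of type VIII collagen, 11.47, 12.35 and 12.51 against 6.16, 5.31, 4.71 and 5.46 (6.70 ± 0.33, adjusted p = 7.48e-09). In Ogn and Col8a2 osteoblast replicate 1 was the lowest of its group, yet far above the endothelial range. Postn, or periostin, a matrix protein of the bone surface, reached 15.13, 15.41 and 15.66 in osteoblasts, while its endothelial levels spread from 7.75 in replicate 2 to 10.99 in replicate 1 (6.43 ± 0.60, adjusted p = 1.59e-06). Replicate 1 was also the highest endothelial array for the matrix genes Thbs4, Tnn, Omd and Aspn, whose differences were 7.07, 6.31, 6.00 and 5.98. The other members of the 12 largest were the homeobox transcription factor Zfhx4 (5.93 ± 0.51), the matrix genes Abi3bp (5.84 ± 0.27) and Edil3 (5.83 ± 0.38), and the Wnt ligand Wnt16 (5.80 ± 0.44). Wnt16 was 8.85, 10.51 and 10.74 in osteoblasts and 4.17, 4.38, 4.28 and 4.13 in endothelial cells, next to the lowest level that adding 16 allows. The size of its difference, and so its place among the 12, was therefore set by that constant, and across the alternative settings it ran from 4.05 to 8.11.

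The 12 largest differences on the endothelial side were led by Kcna5, Timp4, C1qtnf9 and Cd36. Kcna5, a voltage-gated potassium channel, measured 13.82, 13.78, 12.85 and 13.58 in endothelial cells and 6.78, 7.45 and 6.39 in osteoblasts, 99.4-fold lower in the latter (log2 difference -6.64 ± 0.37, adjusted p = 2.51e-08). Timp4, an inhibitor of matrix metalloproteinases, was 14.85, 14.93, 14.06 and 14.64 against 8.45, 8.53 and 7.39 (-6.50 ± 0.39, adjusted p = 4.34e-08). Cd36, the scavenger receptor that brings fatty acids into cells, was 14.29, 14.47, 13.33 and 14.06 against 7.96, 6.96 and 8.22 (-6.32 ± 0.32, adjusted p = 8.19e-09). In all 3 genes endothelial replicate 3 was the lowest of its group, as in all the other genes of this group but Cyp4b1. Tcf15, a transcription factor of fatty acid uptake in endothelium, was 13.72, 14.06, 11.83 and 13.36 against 6.97, 7.62 and 6.87 (-6.09 ± 0.43, adjusted p = 1.24e-07). Cyp1a1, a cytochrome of the aryl hydrocarbon response, had a wide endothelial spread, at 11.05, 11.04, 8.16 and 11.43, and still did not overlap the osteoblast levels of 4.61, 4.89 and 6.76 (-5.00 ± 0.78, adjusted p = 0.000186). The others were the secreted protein gene C1qtnf9 (-6.38), the cytoskeletal LIM genes Lims2 (-5.74) and Ablim3 (-5.67), the lipogenic gene Thrsp (-5.66), the alcohol dehydrogenase Adh1 (-5.61), Spaar (-5.06) and the cytochrome Cyp4b1 (-4.94). All 24 genes of both sides were called in every fit that left out 1 array.

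**Figure D1:**
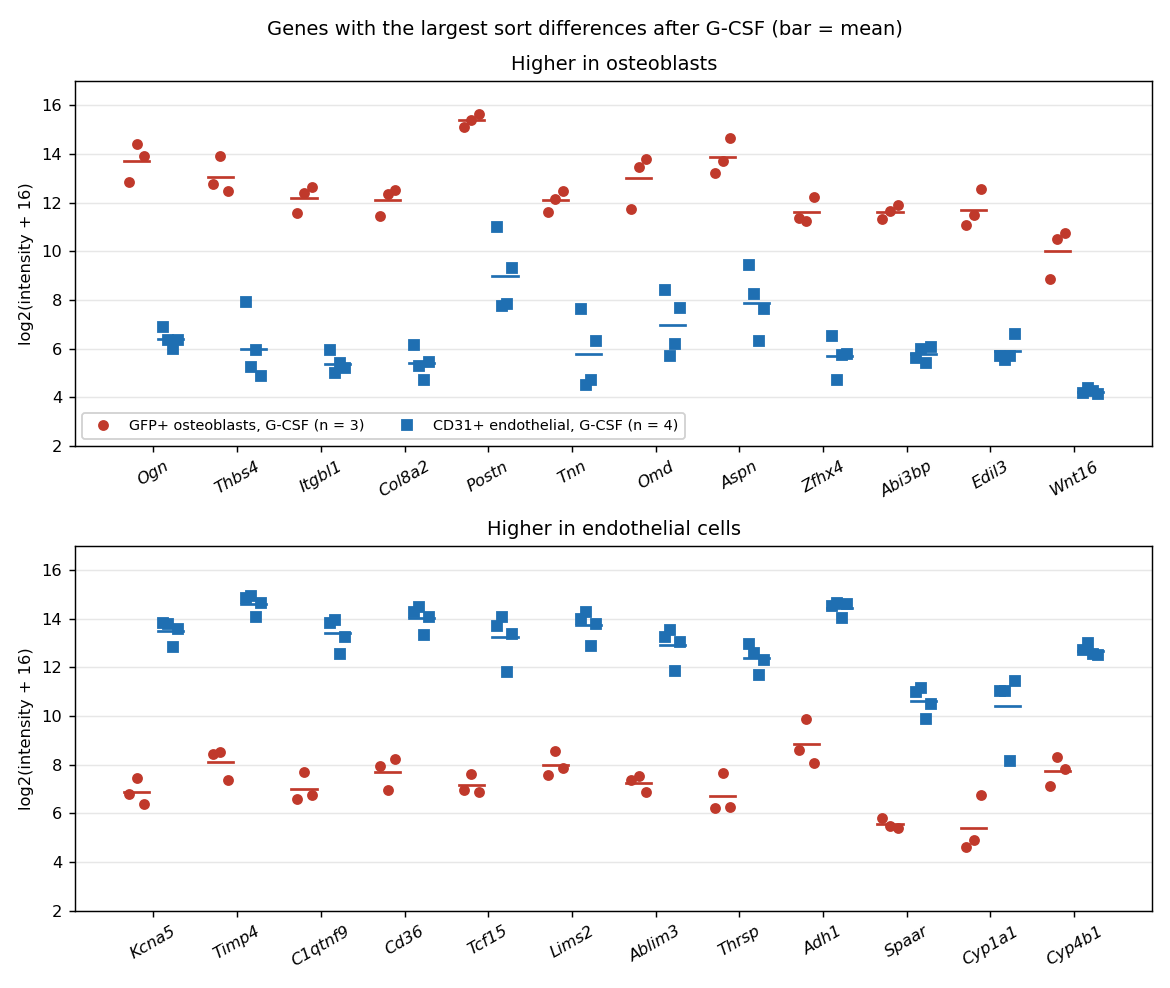
Level of the 12 genes with the largest difference in each direction, as log2(intensity + 16), in each osteoblast array (red circles, n = 3) and endothelial array (blue squares, n = 4) after G-CSF; bars are group means. The groups do not overlap in any of the 24 genes, and endothelial replicate 3, the third blue square of each gene, lies lowest for most endothelial genes, at 8.16 for Cyp1a1.

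Gene lists assembled from knowledge of the tissue describe how each function divided between the sorts. They were chosen with earlier results of these data known, so their counts are descriptions and not independent support. Of the endothelial identity genes, 34 were measured and all 34 were called on the endothelial side (median difference -3.41, against 0.02 over all genes). Cdh5, the VE-cadherin of endothelial junctions, was 13.81, 14.12, 13.90 and 13.75 in endothelial cells and 9.27, 8.69 and 9.92 in osteoblasts (-4.60 ± 0.24, adjusted p = 8.76e-09). Kdr, the main VEGF receptor, was 13.60, 13.73, 13.66 and 13.67 against 10.50, 9.42 and 10.37 (-3.57 ± 0.23, adjusted p = 5.79e-08). Pecam1, which encodes the CD31 used for the sort and so checks it, was 10.20, 10.49, 9.86 and 10.05 against 7.02, 6.56 and 7.25 (-3.21 ± 0.30, adjusted p = 1.58e-06). The endothelial levels of Cdh5 and Kdr lay close together, and osteoblast replicate 2 was the lowest of its group for all 3 genes. Gpihbp1, which anchors lipoprotein lipase to capillaries (-4.83 ± 0.38), and Vwf, the clotting factor stored in endothelial cells (-4.28 ± 0.47), lay in the same direction. So did the angiopoietin receptor Tek (-3.49 ± 0.22), its relative Tie1 (-3.94 ± 0.25) and the sialomucin Emcn (-2.73 ± 0.28).

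Genes of sinusoids and veins were lower in osteoblasts in 11 of 18 cases and higher in 2 (median -2.31). This list also separated the endothelial arrays, with means of 10.63, 10.93, 12.04 and 10.64 against 8.95, 9.0 and 9.46 in osteoblasts. Stab2, the hyaluronan scavenger receptor of sinusoids, was 11.63, 12.01, 14.04 and 11.79 in endothelial cells and 8.49, 8.42 and 10.06 in osteoblasts (-3.37 ± 0.55, adjusted p = 0.000259). Endothelial replicate 3 stood above the others in Stab2, as it did in Gpm6a (10.43, 11.25, 13.08 and 10.66) and in Ackr1, the venular chemokine-binding receptor (10.81, 12.10, 12.89 and 11.76). In all 3 genes every endothelial array nevertheless lay above every osteoblast array, with differences of -3.64 ± 0.54 for Gpm6a and -3.52 ± 0.49 for Ackr1. Arterial genes were lower in osteoblasts in 9 of 16 cases and higher in none (median -1.19), among them the receptor Notch4 (-4.37 ± 0.39), the transcription factor Sox17 (-3.74 ± 0.28), the semaphorin Sema3g (-3.66 ± 0.35) and the Notch ligand Jag2 (-2.89 ± 0.45). In Sema3g and Jag2 replicate 3 was the lowest endothelial array, at 10.81 and 9.93.

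Junction genes were lower in 11 of 17 cases and higher in 2 (median -3.21), led by Cdh5, Esam (-3.91 ± 0.25), Cldn5, the claudin of tight junctions (-3.71 ± 0.35), and Jam2 (-3.54 ± 0.35). Of 25 endothelial transcription factors, 19 were lower and 2 higher in osteoblasts (median -1.32). Sox7 (-3.77 ± 0.35) and Sox18 (-3.26 ± 0.37), partners of Sox17 in vessel formation, were among the lower ones, and Foxc1 and Foxc2, forkhead factors also found in marrow stroma, were the higher ones. Fatty acid uptake genes were lower in 11 of 17 cases and higher in 2 (median -1.27). They included Pparg, the nuclear receptor of lipid storage, at 11.06, 10.81, 10.53 and 10.81 in endothelial cells against 6.68, 6.98 and 7.72 in osteoblasts (-3.68 ± 0.24, adjusted p = 6.48e-08), and the fatty acid carrier Fabp4 (-3.39 ± 0.24). Adhesion and vessel-tone genes were lower in 8 of 18 cases and higher in 3, the lower ones led by Nos3, the endothelial nitric oxide synthase (-3.94 ± 0.30), Icam2 (-3.47 ± 0.43) and Thbd, or thrombomodulin (-2.91 ± 0.24). F3, the tissue factor that starts clotting, was higher (2.84 ± 0.37, adjusted p = 3.81e-05), as were Ptgs2 and Vcam1.

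Of 18 VEGF and Tie signalling genes, 7 were lower in osteoblasts, 4 were higher and 7 were not called. The lower ones included the receptors Flt1 (-4.04 ± 0.37), Kdr, Tek and Tie1, and the higher ones were the ligands Angpt4 (4.54 ± 0.53), Angpt1 (2.13 ± 0.32) and Vegfa (1.69 ± 0.30) and the co-receptor Nrp2 (1.98 ± 0.45). Angpt1, the ligand that activates Tek, was 8.04, 7.73 and 8.45 in osteoblasts and 5.75, 6.15, 5.58 and 6.27 in endothelial cells without overlap (adjusted p = 0.000138).

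**Figure D2:**
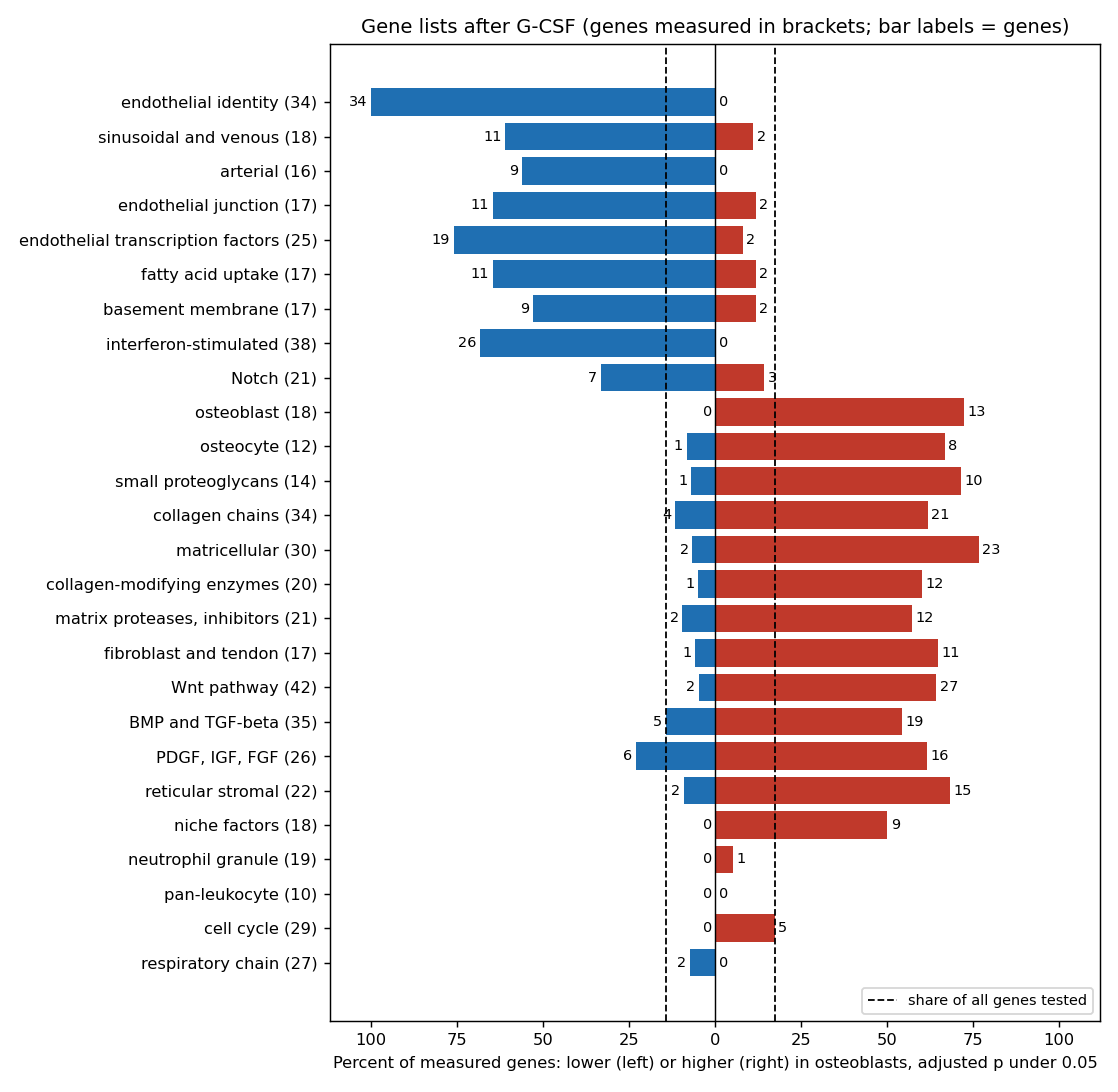
Percent of the measured genes of each list that were lower (blue, left) or higher (red, right) in osteoblasts after G-CSF at an adjusted p under 0.05; the number of genes stands at each bar and the number measured after each name. Dashed lines mark the shares over all genes tested, 14.4% and 17.5%; all 34 endothelial identity genes are on the left, and 13 of 18 osteoblast genes on the right.

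Of 18 measured osteoblast genes, 13 were higher in osteoblasts, none was lower and 5 were not called (median difference 2.85). The higher count was 9 without osteoblast replicate 1 and on centring each array on its median. It was also 9 with the actin ratio as a covariate, where 1 gene was lower. Ibsp, the bone sialoprotein of mineralising matrix, was 15.12, 14.76 and 15.01 in osteoblasts and 12.40, 8.83, 10.57 and 11.58 in endothelial cells, 17.3-fold higher (4.12 ± 0.69, adjusted p = 0.000312). Sp7, or osterix, the transcription factor required for osteoblast formation, was 12.06, 11.11 and 11.21 against 9.45, 5.93, 8.01 and 9.63 (3.20 ± 0.82, adjusted p = 0.00765). Alpl, the alkaline phosphatase that supplies phosphate for mineral, was 11.72, 12.90 and 12.80 against 10.11, 9.11, 8.56 and 10 (3.03 ± 0.36, adjusted p = 1.38e-05). For each gene all osteoblast arrays lay above all endothelial arrays, which were the more widely spread. Dlx5, a homeobox factor of bone (4.00 ± 0.48), Mmp13, the collagenase of bone remodelling (3.93 ± 0.58), Postn and Omd were also among the 13.

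The genes of type I collagen, the main protein of bone, were also called. By its brightest probe set, Col1a1 was 15.57, 15.45 and 15.85 in osteoblasts and 14.93, 11.77, 14.29 and 14.86 in endothelial cells (1.66 ± 0.57, adjusted p = 0.0354), and Col1a2 15.52, 15.65 and 15.74 against 15.13, 13.82, 14.85 and 15.22 (0.88 ± 0.30, adjusted p = 0.0342). All endothelial arrays were below the osteoblasts for both genes, with replicates 1 and 4 the nearest. Replicate 3 was lower, at 14.29 for Col1a1, and replicate 2 was furthest down, at 11.77. The other probe sets differed by more, by up to 2.81 for Col1a1 and 4.82 for Col1a2. Leaving out single arrays gave adjusted p up to 0.106 and 0.0994. Bone genes as a whole varied among the endothelial arrays: the osteoblast list averaged 11.16, 8.62, 9.74 and 10.87 in their replicates 1 to 4 and 12.89, 12.79 and 12.77 in the osteoblasts, and the cartilage list 9.33, 6.69, 8.30 and 10.05 and 8.17, 8.10 and 8.56. The part of bone RNA in the endothelial arrays in these differences was not tested. Bglap and Runx2, also standard osteoblast genes, were not analysed here, since no probe set carried only their symbol.

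Osteocyte genes were higher in 8 of 12 cases and lower in 1 (median 1.98), and in 5 rather than 8 without endothelial replicate 2. Mepe, a matrix phosphoglycoprotein of osteocytes, was 10.46, 8.73 and 9.12 against 5.91, 5.90, 4.54 and 6.51 (3.72 ± 0.86, adjusted p = 0.00391). Dmp1, a phosphoprotein that controls matrix mineral, was 15.48, 14.92 and 14.97 in osteoblasts and 13.43, 9.43, 11.36 and 13.95 in endothelial cells (3.08 ± 1.13, adjusted p = 0.0493), and Phex, a peptidase that acts on phosphate balance, 13.17, 11.29 and 10.53 against 10.34, 5.83, 6.97 and 10.21 (3.33 ± 1.07, adjusted p = 0.0269). The groups did not overlap in any of the 3. The calls of Dmp1 and Phex were lost when 1 array was left out, with adjusted p up to 0.146 and 0.124. The potassium channel gene Kcnk2 (3.98 ± 0.49, adjusted p = 1.92e-05) kept its call in all those fits.

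Promoter windows of a few genes are shown because these genes stood apart between the sorts together. RefSeq windows of 300 bases on GRCm38.p6, from 250 before to 50 after a transcript start, were looked up for the endothelial genes Kdr, Tek and Tie1 and the bone genes Ibsp, Mmp13 and Dmp1, which gave 7 windows. Searched on both strands as exact strings, the Runx motif AACCACA was in 2 of them and the Ets motif CAGGAAG in none. The motifs do not overlap each other. Other forms of either motif were not searched, so a window without a match can still hold such a site. Taking the first window of each gene, AACCACA occurred in 5.37% of the 27025 genes in the table, in 3.76% of the 10833 tested genes with a window, in 3.19% for genes higher in osteoblasts and in 3.74% for those lower. The shares for CAGGAAG were 13%, 12.4%, 10.4% and 13.6%. The windows with a match, chosen after the search, are Mmp13 (chr9:7272264-7272563, plus strand) and the second start of Dmp1 (chr5:104202367-104202666, plus strand), with the match in capitals. Tie1 (chr4:118489800-118490099, minus strand) stands beside them as an endothelial gene with neither exact string. Counted from the transcript start, the matches begin at -119 in Mmp13 and -165 in Dmp1.
Mmp13: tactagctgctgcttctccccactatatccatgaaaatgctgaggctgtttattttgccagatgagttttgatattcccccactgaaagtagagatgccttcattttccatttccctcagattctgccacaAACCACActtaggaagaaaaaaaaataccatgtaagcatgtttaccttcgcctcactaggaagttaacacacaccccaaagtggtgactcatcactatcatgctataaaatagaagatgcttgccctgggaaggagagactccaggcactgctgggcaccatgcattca
Dmp1: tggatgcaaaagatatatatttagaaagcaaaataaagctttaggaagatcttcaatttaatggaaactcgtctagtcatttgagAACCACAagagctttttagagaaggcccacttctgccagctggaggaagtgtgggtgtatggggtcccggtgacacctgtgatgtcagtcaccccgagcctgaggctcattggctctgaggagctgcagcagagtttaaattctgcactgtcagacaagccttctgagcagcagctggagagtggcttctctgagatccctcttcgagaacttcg
Tie1: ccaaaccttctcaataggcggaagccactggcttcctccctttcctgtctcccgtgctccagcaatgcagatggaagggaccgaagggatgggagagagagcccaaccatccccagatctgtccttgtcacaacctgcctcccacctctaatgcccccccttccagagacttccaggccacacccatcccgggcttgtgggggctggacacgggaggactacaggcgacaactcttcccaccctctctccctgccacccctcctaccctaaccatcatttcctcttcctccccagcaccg

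Matrix genes beyond the bone list were mostly on the osteoblast side, apart from basement membranes. Collagen chains were higher in osteoblasts in 21 of 34 cases and lower in 4 (median 1.97), and higher in 13 with osteoblast replicate 1 alone. Col12a1, a fibril-associated collagen, was 14.06, 14.20 and 14.92 against 10.16, 8.52, 9.54 and 10.28 (4.77 ± 0.47, adjusted p = 2.38e-06), and Col16a1 differed by 4.04 ± 0.28 and Col25a1 by 4.26 ± 0.66. The 4 lower chains were the basement membrane chains Col4a1 and Col4a2, the vessel-associated Col15a1, and Col9a3, a cartilage chain that was 10.44, 7.25, 9.64 and 11.65 in endothelial cells and 4.69, 6.46 and 6.59 in osteoblasts (-3.83 ± 1.14, adjusted p = 0.0177). The Col9a3 call was lost without osteoblast replicate 1 (adjusted p = 0.0796).

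Small proteoglycans were higher in 10 of 14 cases and lower in 1 (median 3.59), and higher in 6 with osteoblast replicate 1 alone. Besides Ogn, Omd and Aspn, lumican (Lum), which spaces collagen fibrils, was 14.47, 15.09 and 15.09 in osteoblasts and 12.34, 7.55, 10.46 and 11.90 in endothelial cells (4.32 ± 0.84, adjusted p = 0.00105). Endothelial replicate 2 was again the lowest. Matricellular genes, whose products tune cell and matrix contacts, were higher in 23 of 30 cases and lower in 2 (median 2.40). Mfap4, a microfibril protein, was 8.62, 10.19 and 10.06 against 4.43, 4.21, 4.29 and 4.17 (5.35 ± 0.37, adjusted p = 1.17e-07). Its endothelial levels also lay next to the lowest level that adding 16 allows, so the size of the difference depended on that constant, and it ran from 3.65 to 7.51 across the alternative settings.

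Enzymes that modify collagen were higher in 12 of 20 cases and lower in 1 (median 1.47). P4ha3, a prolyl hydroxylase subunit, was 8.39, 9.08 and 9.11 against 4.10, 4.33, 4.93 and 5.21 (4.22 ± 0.41, adjusted p = 2.15e-06), and the crosslinking oxidases Loxl1, Lox and Loxl3 differed by 3.70 ± 0.31, 3.05 ± 0.74 and 2.84 ± 0.30. Matrix proteases and their inhibitors were higher in 12 of 21 cases and lower in 2 (median 1.91). Mmp13 was 15.15, 15.24 and 15.29 in osteoblasts and 11.95, 9.90, 11.57 and 11.76 in endothelial cells (3.93 ± 0.58, adjusted p = 0.000114), and Mmp2 (3.84 ± 0.71) and the fibroblast activation protease Fap (3.73 ± 0.60) lay the same way, while the inhibitor Timp4 had the largest difference in the other direction. Basement membrane genes were lower in osteoblasts in 9 of 17 cases and higher in 2 (median -1.34). Lama5, a laminin chain of vessels, was 10.53, 10.55, 10.06 and 10.06 against 7.15, 6.49 and 8.16 (-3.04 ± 0.34, adjusted p = 8.73e-06), Col4a2 differed by -2.42 ± 0.33 and agrin (Agrn) by -1.88 ± 0.25. Lama2, the laminin chain of muscle and mesenchyme, went the other way (2.02 ± 0.34).

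Wnt pathway genes, which control bone formation, were higher in osteoblasts in 27 of 42 cases and lower in 2 (median 1.59). The ligand Wnt5a was 9.49, 10.46 and 10.45 in osteoblasts and 6.29, 5.43, 5.46 and 5.33 in endothelial cells (4.51 ± 0.36, adjusted p = 3.11e-07), and the ligand Wnt16 was described above. Secreted antagonists were higher as well: Wif1, which binds Wnt ligands, was 13.62, 13.61 and 14.04 against 11.11, 7.07, 9.19 and 11.66 (4.00 ± 0.78, adjusted p = 0.00107), and Dkk3 differed by 4.59 ± 0.55. Endothelial levels of Wif1 spread from 7.07 in replicate 2 to 11.66 in replicate 4. The 2 lower genes were the receptors Fzd4 and Fzd6.

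In the BMP and TGF-beta list 19 of 35 genes were higher and 5 lower (median 1.22). The ligands Gdf10 (4.67 ± 0.49) and Bmp8a (3.87 ± 0.74), the matrix-binding protein Ltbp2 (3.44 ± 0.26) and the antagonist Grem1 (3.41 ± 0.28) were higher. Bmp6, a ligand that liver endothelium makes in response to iron, was 12.59, 12.88, 11.54 and 12.37 in endothelial cells and 9.13, 8.84 and 8.81 in osteoblasts (-3.42 ± 0.28, adjusted p = 4.59e-07), and the endothelial receptors Acvrl1 (-3.32 ± 0.30) and Eng (-3.06 ± 0.28) were lower with it. Growth factor genes of the PDGF, IGF and FGF families were higher in 16 of 26 cases and lower in 6 (median 1.23), with 10 higher for osteoblast replicate 1 alone. The receptor Fgfr2 was 13.04, 13.13 and 13.11 in osteoblasts and 8.72, 6.99, 8.57 and 8.83 in endothelial cells (4.82 ± 0.45, adjusted p = 1.58e-06), and the ligands Fgf7 (4.54 ± 0.35) and Igf1 (4.08 ± 0.45) were higher. Of the PDGF genes, the ligand Pdgfb, made by endothelium, was lower in osteoblasts (-3.89 ± 0.30), and the receptors Pdgfra (3.69 ± 0.49) and Pdgfrb (1.80 ± 0.37) were higher, as were the ligands Pdgfa, Pdgfc and Pdgfd.

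Notch pathway genes were lower in osteoblasts in 7 of 21 cases and higher in 3 (median -0.41). Nrarp, a Notch target and feedback inhibitor, was 12.08, 12.12, 11.83 and 11.91 in endothelial cells and 8.67, 8.54 and 9.03 in osteoblasts (-3.24 ± 0.21, adjusted p = 5.79e-08), and the atypical ligand Dner went the other way (10.24, 11.72 and 11.73 in osteoblasts against 6.04, 5.96, 5.47 and 5.91, 5.38 ± 0.33, adjusted p = 4.65e-08). Guidance genes were divided, with 15 of 41 higher and 9 lower, and 9 higher without endothelial replicate 2. Epha3, an ephrin receptor, was 10.21, 11.19 and 11.07 in osteoblasts and 5.47, 4.22, 5.53 and 5.05 in endothelial cells (5.76 ± 0.38, adjusted p = 6.22e-08). The ligands Slit2 (5.10 ± 0.60) and Slit3 (3.92 ± 0.48) were higher in osteoblasts, and the vascular Robo family member Robo4 was lower (-3.81 ± 0.25).

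Hox genes, which record position along the body and limb, were divided between the sorts. Of 20 measured, 9 were higher in osteoblasts and 8 lower. The higher ones were Hoxc4, Hoxc5, Hoxc6, Hoxc8, Hoxc9, Hoxc10, Hoxa9, Hoxa10 and Hoxa11, and the lower ones Hoxb3, Hoxb4, Hoxb5, Hoxb6, Hoxd8, Hoxd9, Hoxa2 and Hoxa7. Hoxc8 was 9.30, 9.19 and 9.6 in osteoblasts and 6.26, 5.69, 5.27 and 6.00 in endothelial cells (3.56 ± 0.40, adjusted p = 8.12e-06), and Hoxb5 was 6.46, 4.86 and 5.45 against 9.61, 10.05, 8.99 and 9.29 (-3.89 ± 0.42, adjusted p = 5.24e-06). The groups did not overlap in either gene, and the directions were opposite.

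Factors known to support blood stem cells were higher in osteoblasts in 9 of 18 cases and lower in none (median 1.1). Il7, the cytokine of early B cells, was 8.01, 7.42 and 8.06 in osteoblasts and 5.52, 5.29, 5.31 and 5.26 in endothelial cells (2.49 ± 0.34, adjusted p = 4.75e-05). Ptn, or pleiotrophin, a heparin-binding growth factor (4.5 ± 0.63), Mdk, or midkine, its relative (3.29 ± 0.39), the cadherin Cdh2 (3.85 ± 0.78), Igf1 and Angpt1 were also higher. Cxcl12 was not called: its levels were 14.15, 14 and 14.16 in osteoblasts and 13.79, 14.06, 13.39 and 13.85 in endothelial cells (0.33 ± 0.19, adjusted p = 0.201), overlapping between the groups. The differences of its 3 probe sets ran from -0.45 to 2.01. Kitl, or stem cell factor, was 12.24, 11.70 and 11.78 against 13.32, 13.21, 11.66 and 12.58 (-0.78 ± 0.39, adjusted p = 0.147), also overlapping. Vcam1, the adhesion molecule that binds blood stem cells, was 12.70, 12.38 and 12.59 against 11.29, 11.41, 12.13 and 11.08 (1.08 ± 0.26, adjusted p = 0.00462), but 1 of its 3 probe sets had the other sign and the mean of the 3 was not called (adjusted p = 0.0578).

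Genes of reticular marrow stroma were higher in 15 of 22 cases and lower in 2 (median 1.81). Lepr, the leptin receptor that marks these cells, was 11.80, 11.18 and 11.49 in osteoblasts and 8.81, 7.99, 8.32 and 8.14 in endothelial cells (3.18 ± 0.43, adjusted p = 4.55e-05), and Adipoq, or adiponectin, 9.73, 10.75 and 9.96 against 7.69, 7.32, 7.61 and 8.02 (2.48 ± 0.26, adjusted p = 4.38e-06). The homeobox factor Prrx1 (4.64 ± 0.48), the chemokine scavenger Ackr4 (3.70 ± 0.63) and Grem1 were higher as well. Of 14 regulators of osteoclasts, the cells that resorb bone, 6 were higher and 3 lower. Tnfsf11, or RANKL, which drives osteoclast formation, was 10.95, 10.16 and 11.51 in osteoblasts and 6.73, 4.66, 6.58 and 7.23 in endothelial cells (4.57 ± 0.61, adjusted p = 4.43e-05). Its decoy receptor Tnfrsf11b, or osteoprotegerin, was 9.28, 8.49 and 8.51 against 7.53, 4.56, 4.97 and 7.01 (2.74 ± 0.66, adjusted p = 0.00504). Both were apart in every array, and endothelial replicate 2 had the lowest level of each.

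Interferon-stimulated genes were lower in osteoblasts in 26 of 38 cases and higher in none (median -0.99), and lower in 19 without osteoblast replicate 3 and in 17 with replicate 1 alone. Rsad2, the antiviral enzyme viperin, was 13.14, 13.36, 12.57 and 13.03 in endothelial cells and 9.69, 9.64 and 10.08 in osteoblasts (-3.22 ± 0.42, adjusted p = 3.74e-05). Usp18, a brake on interferon signalling (-2.36 ± 0.27), Bst2, or tetherin (-2.03 ± 0.21), and the guanylate-binding protein Gbp2 (-2.02 ± 0.27) lay in the same direction without overlap. Antigen processing genes were lower in 5 of 17 cases and higher in none, with 12 not called (median -0.08). The 5 were Psmb9 (-1.65 ± 0.39) and Psmb10 (-1.64 ± 0.25) of the immunoproteasome, the transporter subunits Tap1 and Tap2 (-1.47 ± 0.24), and Tapbp (-0.99 ± 0.15). Psmb9 and Tap1 were also counted in the interferon list, and the Psmb9 difference was -0.78 with osteoblast replicate 1 alone.

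Of 27 chemokine genes, 3 were higher and 6 lower, against 17.5% and 14.4% of all genes, and 3 were lower without endothelial replicate 1. Cxcl14 was 10.28, 10.69 and 10.74 in osteoblasts and 7.96, 7.12, 7.74 and 7.63 in endothelial cells (2.95 ± 0.32, adjusted p = 5.54e-06). Ackr2, a scavenger of inflammatory chemokines, was 9.41, 9.57, 11.59 and 9.55 in endothelial cells and 7.34, 7.95 and 8.21 in osteoblasts (-2.19 ± 0.42, adjusted p = 0.000982), with only 1 of its 2 probe sets in this direction. Of 21 genes of G-CSF receptor and STAT3 signalling, 3 were higher, 2 lower and 16 not called, counts not above the shares of all genes. Csf3r, the G-CSF receptor itself, was 11.48, 9.84 and 9.95 in osteoblasts and 10.99, 10.62, 11.65 and 11.55 in endothelial cells (-0.78 ± 0.58, adjusted p = 0.341), and the 2 groups overlapped. The cytokine receptor Lifr (2.52 ± 0.38) and the repressor Bcl6 (1.53 ± 0.23) were higher in osteoblasts, and Il6st, the shared receptor chain of the IL-6 family (-1.33 ± 0.23), and Il4ra (-1.31 ± 0.32) were lower. For Il6st 1 of 4 probe sets had the other sign and their mean was not called (adjusted p = 0.157), and for Il4ra the difference was -0.55 with osteoblast replicate 1 alone.

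Acute phase genes were higher in 5 of 15 cases and lower in 1. Cp, or ceruloplasmin, the copper-carrying oxidase, was 13.84, 14.17 and 13.71 in osteoblasts and 9.80, 8.84, 8.75 and 9.25 in endothelial cells (4.75 ± 0.27, adjusted p = 3.28e-08), 26.9-fold higher, and the protease inhibitors Serping1 (2.64 ± 0.29) and Serpina3n (2.66 ± 0.55) lay the same way. Saa3, an acute phase protein, was 12.30, 11.94 and 10.95 against 12.61, 11.79, 11.99 and 12.29 (-0.44 ± 0.52, adjusted p = 0.571) and overlapped. The interferon-induced membrane gene Ifitm1 overlapped too, at 14.65, 14.76 and 13.53 and 14.60, 14.06, 14.17 and 14.44 (-0.01 ± 0.30, adjusted p = 0.989).

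Of 29 cell cycle genes, 5 were higher, close to the share of all genes (17.5%), none was lower and 24 were not called. The list median was 0.14, and 3 were higher without endothelial replicate 2. Mki67, the marker of dividing cells, was 12.69, 12.60 and 11.66 in osteoblasts and 8.89, 7.43, 8.74 and 9.37 in endothelial cells (3.70 ± 0.53, adjusted p = 8.01e-05), and Cenpe, a motor of the mitotic kinetochore, differed by 2.90 ± 0.42. Glycolysis and hypoxia genes were lower in 8 of 25 cases and higher in 2, and lower in 5 without osteoblast replicate 1. They included Pfkp, a phosphofructokinase (-1.68 ± 0.25), and the hypoxia-response genes Ndrg1 (-1.57 ± 0.17) and Ankrd37 (-1.87 ± 0.29). Of 27 respiratory chain genes, 2 were lower (Ndufa4 -0.79 ± 0.25 and Sdha -0.47 ± 0.16, the latter with 1 of 3 probe sets of the other sign), and 10 with osteoblast replicate 1 alone. Immediate early genes, which handling of tissue can induce, were higher in 4 of 23 cases and lower in 4, shares close to those of all genes (17.5% and 14.4%). The higher count was 2 without osteoblast replicate 3 and 6 without replicate 2, and the lower count 0 with the batch term for decimals. Members included Nr4a2 at 2.08 ± 0.55 and Hspa1b at -1.43 ± 0.35.

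Markers of cells outside the sorts were examined as lists. Not every marker was measured: 10 T and NK, 7 erythroid and 6 adipocyte markers were missing. The pan-leukocyte list had 0 of 10 genes called in either direction in limma, and 0 at an unadjusted p under 0.05, and its mean was 11.90, 11.28 and 10.55 in osteoblast replicates 1 to 3 and 11.43, 10.86, 11.66 and 11.88 in endothelial replicates 1 to 4. Ptprc, which encodes the CD45 that both sorts excluded, was 13.81, 12.39 and 11.33 in osteoblasts and 11.58, 10.97, 11.72 and 11.83 in endothelial cells (0.99 ± 0.61, adjusted p = 0.245), with osteoblast replicate 1 the highest. S100a8, a neutrophil calcium-binding protein, was 15.70, 15.94 and 15.83 against 15.37, 15.40, 15.12 and 15.39 (0.51 ± 0.29, adjusted p = 0.216), not called although the arrays did not overlap, and Mpo, the neutrophil peroxidase, 13.96, 14.46 and 14.59 against 13.41, 13.97, 14 and 14.38 (0.40 ± 0.68, adjusted p = 0.707). Leukocyte transcripts were thus measured at high levels in both sorts. The neutrophil granule list averaged 12.46 to 13.31 in osteoblasts and 12.41 to 13.34 in endothelial cells, with 1 of 19 genes called, and 2 of 23 myeloid genes known to rise with G-CSF were called. Monocyte and macrophage genes were called in 3 of 18 cases, B lineage genes in 1 of 16, T and NK genes in 1 of 6 and erythroid genes in 1 of 13. Over all genes, 17.5% were called higher and 14.4% lower. Among the calls in these marker lists, Vcam1 of the macrophage list and Ebf1 of the B lineage list also belong to the reticular stromal list. In a bulk sort fewer cells of a type and less RNA per cell cannot be told apart, and the part of leukocyte RNA in the differences above was not tested.

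Fibroblast and tendon genes were higher in osteoblasts in 11 of 17 cases and lower in 1 (median 2.38). Tnmd, or tenomodulin, a tendon membrane protein, was 10.67, 11.62 and 10.28 in osteoblasts and 6.39, 5.74, 6.01 and 5.33 in endothelial cells (4.99 ± 0.33, adjusted p = 5.79e-08), and Fmod, or fibromodulin, a tendon proteoglycan, differed by 4.16 ± 0.48. Over the list, osteoblasts averaged 9.6, 10.46 and 10.05 and endothelial cells 8.41, 7.41, 7.68 and 7.90. Cartilage genes were mixed, with 5 of 18 higher and 2 lower, and 1 higher and 6 lower without endothelial replicate 2. Skeletal muscle genes were lower in osteoblasts in 4 of 18 cases, their means running from 6.05 to 6.38 in osteoblasts and from 6.69 to 7.96 in endothelial cells, and 8 were lower in a fit without untreated endothelial replicate 1, whose muscle genes averaged 12.03. Only 1 was lower without endothelial G-CSF replicate 4, and 1 each with the actin covariate, the batch term for decimals and osteoblast replicate 1 alone. Of 16 pericyte and smooth muscle genes, 3 were higher and 3 lower, near the shares of all genes (17.5% and 14.4%). The higher ones included Pdgfrb and Cspg4 (1.60 ± 0.40). The lower ones included the channel gene Kcnj8 (-3.05 ± 0.42) and the adhesion molecule Mcam (-2.73 ± 0.29), which also belongs to the endothelial identity list. Adipocyte genes were higher in 1 of 8 cases (Adipoq) and lower in 3 (Pparg, Fabp4 and Lpl). Osteoclast genes were higher in 2 of 11 cases and lower in 1, near the shares of all genes. The protease gene Ctsk, or cathepsin K, was 13.21, 13.79 and 13.84 in osteoblasts against 11.16, 8.04, 10.25 and 11 (3.50 ± 0.61, adjusted p = 0.000427). Megakaryocyte genes were lower in 2 of 12 cases, Itga2b and Vwf, near the share of all genes (14.4%), and Vwf also belongs to the endothelial identity list.

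**Figure D3:**
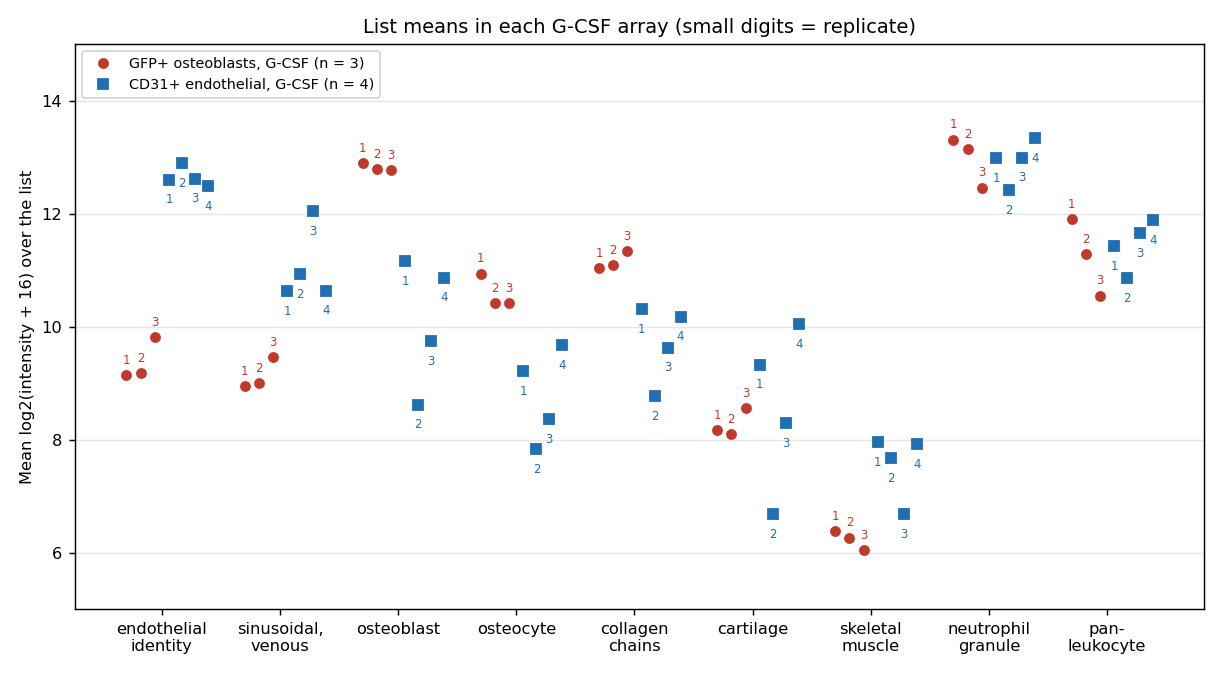
Mean log2(intensity + 16) over the measured genes of 9 lists in each G-CSF array; red circles are osteoblast replicates 1 to 3, blue squares endothelial replicates 1 to 4, and small digits give the replicate. Endothelial replicate 2 is lowest for osteoblast (8.62), osteocyte, collagen and cartilage genes, replicate 3 is highest for sinusoidal genes (12.04), and the neutrophil and pan-leukocyte means of the 2 sorts overlap.

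The contrast between the sorts was also taken in the untreated arrays, where 1831 genes (13.6%) were higher in osteoblasts and 1722 (12.8%) lower. The 2 contrasts compare different arrays but share the same estimate of the spread. Across the 13453 genes, which are not independent, the differences in the 2 conditions correlated with r = 0.89, and 4225 of the 4287 genes called after G-CSF had the same sign untreated. Called in both conditions with the same sign were 2866 genes, 66.9% of the calls after G-CSF and 80.7% of the untreated calls. The difference between the 2 contrasts was tested in the same model. Its median SE was 0.4, against 0.28 for the contrast after G-CSF. On simulated data the test found 4% of changes of 1 log2 unit and 41% of those of 2, so changes of such size can be missed. It called no gene (0%), with 621 genes (4.62%) at an unadjusted p under 0.05 in limma and a lowest adjusted p of 0.203. Without untreated osteoblast replicate 2, 21 genes passed, and with osteoblast replicate 1 alone in each condition, 20 did, a fit in which the osteoblast arrays give no spread of their own. Untreated osteoblast replicate 2 averaged 13.27 over neutrophil granule genes, against 10.52 and 10.23 in the other untreated osteoblast arrays.

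**Figure D4:**
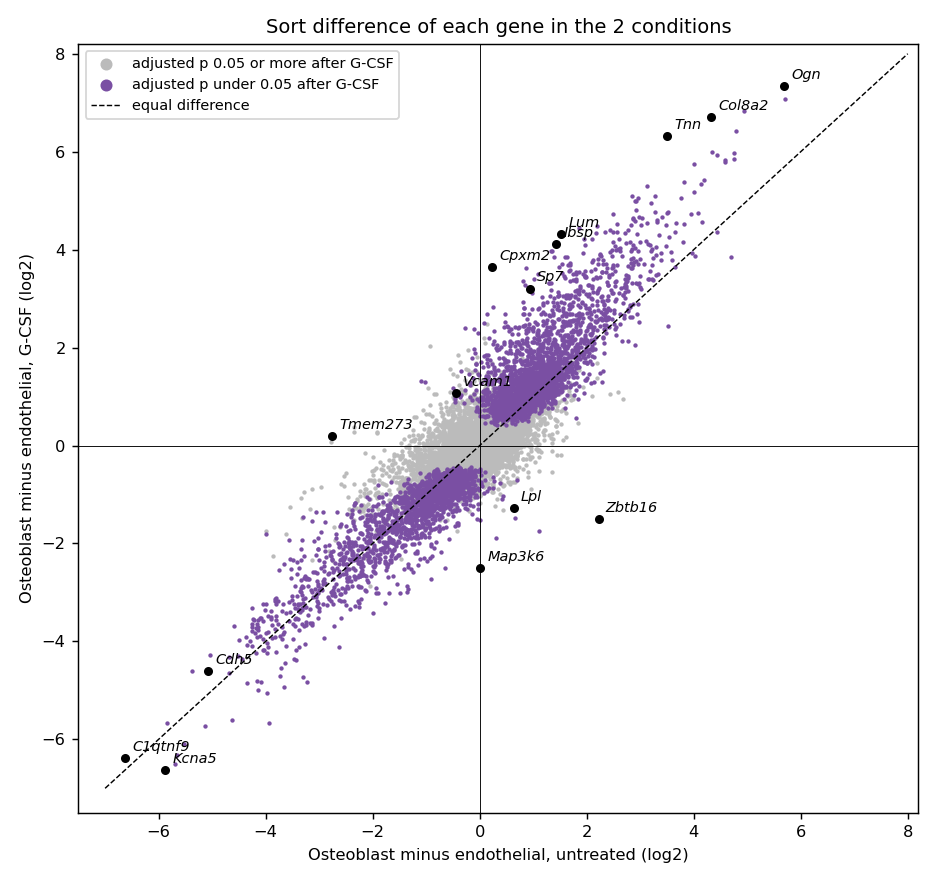
Difference between osteoblasts and endothelial cells, in log2 units, untreated (horizontal) and after G-CSF (vertical), for each of the 13453 genes; purple points passed an adjusted p under 0.05 after G-CSF, and the dashed line marks equal differences. Most genes follow the line (r = 0.89), endothelial genes such as Cdh5 lie on it, several bone matrix genes such as Ibsp and Tnn lie above it, and Zbtb16 lies right of 0 and below 0.

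Endothelial identity genes had almost the same difference in both conditions (medians -3.41 and -3.64), and all 34 were called in each. List medians of osteoblast, collagen and small proteoglycan genes were larger after G-CSF, with no gene's change called. The osteoblast list had a median of 2.85 after G-CSF and 0.69 untreated, with 13 and 6 of 18 genes higher. Collagen chains had medians of 1.97 and 0.52, and small proteoglycans 3.59 and 1.53. An unadjusted p under 0.05 for the change was reached by 11 of 30 matricellular genes, 9 of 34 collagen chains, 5 of 14 small proteoglycans, 8 of 42 Wnt genes, 2 of 18 osteoblast genes and 0 of 17 basement membrane genes, and outside bone and matrix by 6 of 22 reticular stromal and 4 of 8 adipocyte genes, against 4.62% of all genes, and none passed adjustment. Ibsp was 15.16, 13.55 and 15.31 in untreated osteoblasts and 14.02, 11.94, 13.55 and 13.48 in untreated endothelial cells, a difference of 1.43 against 4.12 after G-CSF (limma adjusted p = 0.907 for the change). The osteoblast list averaged 10.64 to 12.23 in untreated endothelial arrays and 8.62 to 11.16 after G-CSF, and 12.21 to 13.46 untreated and 12.77 to 12.89 after G-CSF in osteoblasts. The part of bone RNA in the endothelial sort was not tested.

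Zbtb16, or PLZF, a transcription factor that glucocorticoids induce, was the only gene called in both conditions with opposite signs. Untreated, it was 10.14, 11.14 and 9.12 in osteoblasts and 8.22, 8.43, 7.47 and 7.52 in endothelial cells, and after G-CSF 10.06, 10.84 and 9.19 and 11.36, 11.91, 10.86 and 12.01. Osteoblast levels kept their range, while all 4 endothelial arrays after G-CSF lay above all 4 untreated ones. The contrast went from 2.22 to -1.50, a change of -3.73 ± 0.66 (limma adjusted p = 0.208), which did not pass. The call after G-CSF (adjusted p = 0.0219) was itself lost without osteoblast replicate 3 (adjusted p = 0.125).

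The lowest p-values for a change were those of Tmem273, an uncharacterised membrane protein gene (2.96 ± 0.49, limma adjusted p = 0.203), and Cpxm2, a carboxypeptidase-like gene (3.40 ± 0.57, limma adjusted p = 0.203). Tmem273 was 4.64, 5.50 and 4.94 in untreated osteoblasts and 7.77, 7.6, 7.82 and 7.98 in untreated endothelial cells, and 6.78, 6.35 and 7.48 and 6.45, 6.10, 6.71 and 7.43 after G-CSF, where the groups overlapped. Cpxm2 was 9.41, 9.28 and 9.59 and 9.75, 8.38, 9.22 and 9.41 in untreated osteoblasts and endothelial cells, and 10.04, 10.86 and 10.79 and 8.00, 6.63, 5.99 and 7.09 after G-CSF. The untreated groups overlapped and the G-CSF groups did not. Map3k6, a stress kinase, had differences of 0.01 and -2.51, its endothelial levels being 8.97, 8.66, 8.45 and 8.91 untreated and 11.24, 11.42, 10.35 and 10.89 after G-CSF. The matrix genes Col8a2 and Itgbl1 had differences of 4.32 and 4.94 untreated and 6.70 and 6.82 after G-CSF, and Plxna2, a semaphorin receptor, 1.36 and -0.55. Tmem255a had differences of 1.45 and -0.18, and its probe sets differed in sign after G-CSF.

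Vcam1 and Lpl, chosen after their values were seen, had opposite signs in the 2 conditions. Vcam1 was 13.47, 12.75 and 13.00 in untreated osteoblasts and 13.36, 13.22, 13.55 and 13.95 in untreated endothelial cells, a difference of -0.45 that was not called, against 1.08 after G-CSF (limma adjusted p = 0.537 for the change). Lpl, the lipase that releases fatty acids from lipoproteins, was 13.88, 13.39 and 13.71 and 13.10, 13.25, 13.28 and 12.46 untreated, and 11.99, 13.01 and 13.22 and 14.42, 14.12, 13.51 and 13.99 after G-CSF (difference 0.64 and -1.27, limma adjusted p = 0.457 for the change). Every G-CSF endothelial array lay below every untreated one in Vcam1 and above every untreated one in Lpl.

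**Figure D5:**
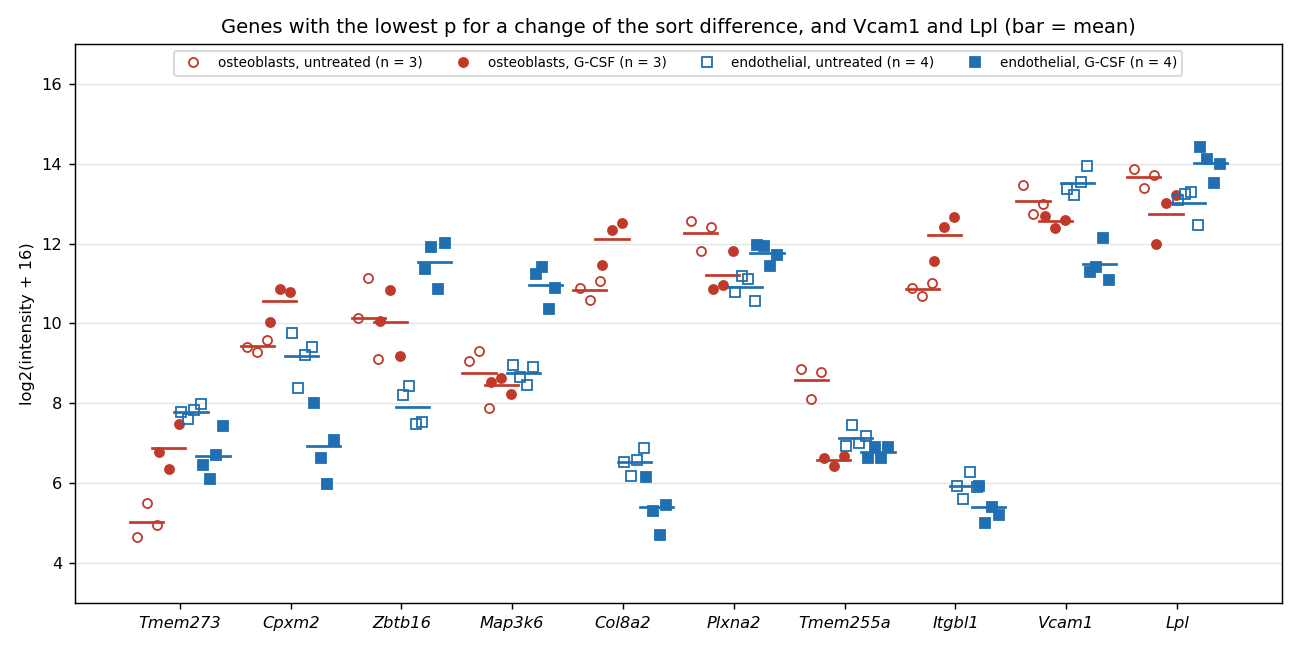
Level of the 8 genes with the lowest p for a change of the sort difference, and of Vcam1 and Lpl, as log2(intensity + 16), in each array; open symbols are untreated and filled symbols G-CSF arrays, red circles osteoblasts (n = 3 each), blue squares endothelial cells (n = 4 each), and bars are group means. Zbtb16 lies on opposite sides in the 2 conditions, from a difference of 2.22 to -1.50, through its endothelial levels.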

How the data were processed

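RNA of sorted marrow cells (cRNA made from 100 ng of total RNA, per the labels' protocols) was measured on 14 Affymetrix arrays. The authors deposited 1 linear intensity per probe set, made with Affymetrix Expression Console 1.1 per the submitters' processing notes. The summarising algorithm is not given in the sources used here, and the trimmed mean is equal on all arrays, so a shift of all genes would not show. Of 45101 probe sets, 34945 carried 1 gene symbol, 932 several, 9160 none and 64 were controls. The dimmest share of probe sets (0.333) was dropped, log2(intensity + 16) was taken and the brightest probe set per gene kept, which left 13453 genes.

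A linear model of 4 group means over all 14 arrays was fitted with limma 3.58.1 in R 4.3.3, with an intensity trend, two-sided tests and Benjamini-Hochberg adjustment over all genes. It gave the difference between the sorts after G-CSF, the same untreated, and the change between them. The number of arrays limits the precision. The fit was tested on simulated data. The lists and genes compared were chosen with earlier results of these data known. Named were the 12 largest called differences in each direction, the 8 lowest p-values of the change and key genes of both cell types. From each list up to 4 called genes were named by size of difference, both directions together. Some other list members are given as well. Alternatives covered the pseudocount, normalization, dim probe sets, probe set choice, covariates, the replicate block and leaving out each array.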

Additional observations from a re-analysis of the deposited data

Results flagged for a closer look

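In a group of 4 arrays, 1 endothelial array after G-CSF lay far from the other 3 in 9 of 194 genes and in 4 of 50 list means, by Dixon's gap ratio. Chance alone passes it in about 1 of 20 groups, so the number of genes is near that share. Replicate 3 stood apart upward in Stab2 (14.04), a scavenger receptor of sinusoids, and in the chemokine scavenger Ackr2 (11.59), and downward in the aryl hydrocarbon target Cyp1a1 (8.16) and the neutrophil gene S100a8 (15.12). Replicate 2 stood apart downward in the growth factor receptor Fgfr2 (6.99), in the mean of matrix protease genes (9.73), of stem cell niche factors (8.41) and of myeloid genes known to rise with G-CSF (10.76), and upward in the adhesion gene Icam2 (13.32). Replicate 1 was apart upward in the Wnt ligand Wnt5a (6.29) and downward in the platelet integrin Itga2b (8.99). Replicate 4 was apart in the matrix gene Edil3 (6.62) and in the mean of erythroid genes (9.34), both upward.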

How the results depend on the processing

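Of the 182 called genes that the text could name, 154 kept their call in every fit without 1 array, and 142 kept it in every other setting; osteoblast replicate 1 alone lost 32, the actin ratio as a covariate 22 and the batch term for decimals 22. Centring on the array median gave 3289 lower genes after G-CSF. At an adjusted p under 0.01, 1562 genes were higher and 1241 lower after G-CSF, and 1048 and 1068 untreated; 1170 lower genes differed by at least 1 log2 unit. For the change of the sort difference, where no gene was called in limma, the mean of probe sets gave 1 gene, osteoblast replicate 1 alone 20, leaving out both untreated arrays with blood or muscle genes 1, and leaving out single arrays 0 to 21, the last without untreated osteoblast replicate 2. With the replicate block across both sorts 2391 genes were higher and 2003 lower after G-CSF, and 2 changed; same-numbered G-CSF samples correlated at -0.0115, 0.0429 and 0.0358 in their deviations from the group means, so the numbers were not taken as a pairing. Asprv1, a myeloid gene, reversed to 0.21 with osteoblast replicate 1 alone (-1.3 over all arrays). On centring, 9 list medians turned below 0: axon guidance (-0.03), cell cycle (-0.14), Hox (-0.13), VEGF and Tie (-0.12), glucocorticoid and clock (-0.09), immediate early (-0.11), vessel BMP (-0.22), monocyte and macrophage (-0.1) and neutrophil granule (-0.24). Quantile normalization turned VEGF and Tie (-0.01), neutrophil (-0.1) and monocyte (-0.12). The settings that use decimals, osteoblast replicate 1 alone and the 2 untreated arrays were chosen after seeing the data. Arrays carry no depth, and differences between dim probe sets are understated.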

Other observations

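Genes that glucocorticoids induce or that run the daily clock were higher in osteoblasts after G-CSF in 5 of 26 cases and lower in 3, near the shares of all genes (17.5% and 14.4%), and lower in 1 without endothelial replicate 2 and in 5 without replicate 3. The metallothionein Mt2, which binds metals, was 13.12, 13.74 and 13.37 in osteoblasts against 12.41, 11.88, 9.49 and 11.79 in endothelial cells (2.02 ± 0.56, adjusted p = 0.0123). The clock factor Npas2 was 7.92, 7.62 and 9.75 in osteoblasts against 6.81, 7.24, 6.07 and 6.73 in endothelial cells (1.72 ± 0.52, adjusted p = 0.0198), and both calls were lost in a fit without 1 array. On the endothelial side were Zbtb16 and Sgk1, a kinase of salt and stress signalling, which was 12.63, 13.37 and 14.12 in osteoblasts against 14.28, 14.63, 13.97 and 14.26 in endothelial cells (-0.91 ± 0.28, adjusted p = 0.0223). Of the 4287 genes called after G-CSF, 1420 were not called untreated, and 62 of the 4287 had the opposite sign in the untreated arrays.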
